A study of Rattus norvegicus with 12 samples.

Results

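Chemokines and their receptors were followed through rat atria under volume overload. The 45 genes were those whose gene symbol, standing alone for a probe set of the array, began with Ccl, Cxcl, Cx3cl, Xcl, Ccr, Cxcr, Cx3cr, Xcr or Ackr and a digit, out of 14217 genes named alone. They comprised 29 ligands (16 of the CC, 11 of the CXC, 1 of the CX3C and 1 of the XC class), 12 receptors and 4 atypical receptors. The probe set with the highest mean over all arrays stood for each gene, and 8 genes had more than 1. The rats were male, of the Sprague-Dawley strain and 225 to 275 g in weight, and both atrial appendages were taken 28 days after the operation. In the shunt groups the aorta and the vena cava had been joined, which loads the heart with volume; the sham groups had a sham operation. No genetic change is named for any group, and the animals' age is not given. Each of the 4 groups (right sham, right shunt, left sham and left shunt) had 3 arrays, and each array held a pool of 2 tissues. The p-values therefore measure the spread between pools, not between single animals.

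Chemokines are small secreted proteins that bind G protein-coupled receptors on leukocytes and other cells and direct their migration along a gradient. Inflammatory chemokines such as Ccl2 are induced in stressed tissue and recruit monocytes, neutrophils or T cells, while homeostatic ones such as Cxcl12, Cxcl13, Ccl19 and Ccl21 place lymphocytes, dendritic cells and stem cells in healthy tissue. The atypical receptors bind chemokines without the usual G protein signal and take them up.

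Values are log2 RMA values, so a difference of 1 is 2-fold, and every adjusted p comes from 1 limma fit over 31042 probe sets with a threshold of 0.05. The table carries no detection calls. A gene was therefore marked as near background where all 4 group means lay under 5.46, the median of all probe sets, a mark that 46.7% of all probe sets received. It fell on 26 of the 45 genes: 14 ligands, 10 of the 12 receptors and 2 atypical receptors. Among the receptors, Cxcr4 and Cxcr5 did not carry it. The levels of 28 chemosensory receptor genes, taken as a guide to background, lay between 2.86 and 4.60, and 9 of the 45 genes lay under their 90th percentile of 3.96 in all 4 groups (Ccl9, Ccl20, Ccl28, Ccr2, Ccr3, Ccr4, Cxcl2, Cxcr1 and Cxcr2). As a check of the tissue label, 7 markers of atrial muscle averaged 10.62 to 10.93 over the arrays, and 1 of them was near background. The labels' tissue entry names ventricles as well as atria, and the mean of 7 ventricular markers was 8.47 to 9.28 in right shunt against 8.08 to 8.23 in right sham and 6.69 to 7.49 in the left atrium. Left shunt replicate 3 stood apart from its group, with a mean correlation of 0.989 with the other 2 arrays against 0.992 and 0.993. Markers of fat and nerve were higher on it: 7 adipocyte markers averaged 6.88 against 5.55 and 6.12 on the other 2 arrays, Ucp1 of brown fat read 7.56 against 4.22 and 4.66, and 8 neuronal markers averaged 4.88 against 4.32 and 4.51. Their part in the left shunt values was not tested.

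The proximal promoters of the 4 genes with the smallest p that the RefSeq table held, and of Cxcr4, which was chosen after its values were seen, are shown because these genes carry clear chamber differences and, for Cxcr4, the change found in both atria. Each is the 250 bases before the transcription start in build GRCr8, read 5′ to 3′ in the direction of the gene, in lower case with motif matches in capitals. Cxcl13 lies at chr14:13917921-13918170 (minus strand), Ccl21 at chr5:61777516-61777765 (minus), Cxcl11 at chr14:15973478-15973727 (plus), Ccl6 at chr10:68883367-68883616 (minus) and Cxcr4 at chr13:42634289-42634538 (minus).

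Cxcl13: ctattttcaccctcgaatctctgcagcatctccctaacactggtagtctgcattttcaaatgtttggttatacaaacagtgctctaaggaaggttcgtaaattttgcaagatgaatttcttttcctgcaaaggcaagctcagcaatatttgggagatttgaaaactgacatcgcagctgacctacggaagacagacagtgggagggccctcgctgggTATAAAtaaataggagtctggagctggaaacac
Ccl21: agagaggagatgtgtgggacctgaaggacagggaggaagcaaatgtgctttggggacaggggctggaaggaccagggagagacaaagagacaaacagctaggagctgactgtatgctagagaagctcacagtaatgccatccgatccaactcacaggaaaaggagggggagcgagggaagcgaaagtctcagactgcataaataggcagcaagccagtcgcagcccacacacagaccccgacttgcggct
Cxcl11: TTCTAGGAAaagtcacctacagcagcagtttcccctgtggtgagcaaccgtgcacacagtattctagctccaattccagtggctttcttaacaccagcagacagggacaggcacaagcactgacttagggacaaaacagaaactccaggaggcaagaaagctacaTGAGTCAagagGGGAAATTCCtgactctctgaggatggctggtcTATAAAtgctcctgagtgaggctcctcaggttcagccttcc
Ccl6: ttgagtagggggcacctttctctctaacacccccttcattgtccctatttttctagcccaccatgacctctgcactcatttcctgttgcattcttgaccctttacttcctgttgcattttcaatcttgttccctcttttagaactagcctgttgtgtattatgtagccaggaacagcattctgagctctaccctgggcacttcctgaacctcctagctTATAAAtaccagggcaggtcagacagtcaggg
Cxcr4: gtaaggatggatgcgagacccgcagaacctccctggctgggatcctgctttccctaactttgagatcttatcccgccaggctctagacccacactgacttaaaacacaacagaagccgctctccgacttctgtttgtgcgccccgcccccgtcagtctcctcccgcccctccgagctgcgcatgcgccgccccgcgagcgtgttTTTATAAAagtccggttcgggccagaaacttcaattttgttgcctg

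Both strands were searched for 5 motifs: the 10-letter NF-kB consensus, the interferon-stimulated response element core (GAAA, any 2 bases, GAAA), the STAT site (GAS) TTCNNNGAA, the AP-1 site TGANTCA and the TATA box TATAAA. The Cxcl11 promoter held the NF-kB consensus from position -74 (the base before the start being -1), an AP-1 match from -85, a TATA box from -41 and a GAS match from -250. Cxcl13 and Ccl6 held a TATA box each, from -33 and -32, and Cxcr4 held 2 overlapping TATA boxes on opposite strands, from -46 and -44. Ccl21 held no match, which says only that these letters are not in this window. The table held promoters of 35 of the 45 genes; Ackr1, Ccl2, Ccl3, Ccl4, Ccl5, Ccl11, Ccr4, Ccr10, Cxcl3 and Cxcr5 had no entry. The NF-kB consensus was found in 9 of the 35 (25.7%), namely Ccl7, Ccl9, Ccl20, Ccr3, Cxcl1, Cxcl2, Cxcl6, Cxcl10 and Cxcl11, against 6.33% of all 33469 promoters in the table. The TATA box was found in 10 (28.6%, against 12.9%), the AP-1 site in 5 (14.3%, against 6.34%), the GAS in 4 (11.4%, against 7.67%) and the interferon core in 2 (5.71%, against 3.41%; Ccl19 and Cxcl10). A match is a description of the letters, not a site in use.

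The widest differences between the left and right atria were those of 2 homeostatic ligands, in opposite directions. Cxcl13, the B cell chemoattractant of lymphoid follicles, was well above background in the right atrium (a mean of 7.58 in sham) and within the background level in the left (3.89), so no fold is given. Ccl21, the ligand that lymphatic vessels use to draw in dendritic cells and T cells, was 7.54-fold higher in the left in sham. The right sham mean of Ccl21, 5.23, lay under the median of all probe sets. In sham animals 17 of the 45 genes (37.8%) passed the threshold, 7 higher and 10 lower in the left atrium, against 36.1% of all probe sets (20.1% higher, 16.1% lower). After the shunt 20 (44.4%) passed, 9 higher and 11 lower, against 37.7% (20.2% higher, 17.4% lower). These shares lie near the background, so the number of chamber differences is not a result about chemokines. The median left minus right difference of the 45 genes was -0.06 in sham and 0.03 in shunt animals, against 0.02 and 0.05 over all probe sets. Of the 12 genes past the threshold in both states, 11 kept their direction: Ackr3, Ccl21, Ccl24 and Ccr10 were higher in the left, and Ccl4, Ccl5, Ccl6, Ccl11, Cxcl12, Cxcl13 and Cxcr4 in the right, though other probe sets of Cxcl12 gave the opposite direction. In bulk tissue, fewer cells of a type and less RNA per cell cannot be told apart.

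Cxcl13 read 7.85, 7.53 and 7.36 on the right sham arrays, 7.54, 7.10 and 7.62 on the right shunt arrays, 3.81, 3.61 and 4.25 on the left sham arrays and 4.74, 5.19 and 4.82 on the left shunt arrays. All 6 right arrays lay above all 6 left arrays, and the left arrays lay under the median of all probe sets. The left minus right difference was -3.69 ± 0.19 in sham (SE, n = 3 pools per group, adjusted p = 1.94e-07) and -2.51 ± 0.19 in shunt animals (adjusted p = 3.03e-06). Of 5 measured markers of B cells, the cells Cxcl13 attracts, 3 were near background (Cd79b, Ms4a1 and Blk), none passed the threshold in any of the 6 comparisons, and the list's mean was 4.71 to 4.87 in right sham and 4.56 to 4.86 in left sham.

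Ccl21 read 5.51, 4.87 and 5.32 in right sham, 5.30, 5.72 and 5.61 in right shunt, 8.48, 7.82 and 8.13 in left sham and 7.93, 7.37 and 8.37 in left shunt. Every left array lay above every right array. The difference was 2.91 ± 0.24 in sham (adjusted p = 3.47e-06) and 2.35 ± 0.24 in shunt animals (adjusted p = 2.49e-05). Of the other 4 lymphatic endothelial markers, Pdpn (0.81 in sham, 0.47 in shunt) and Flt4 (0.32 and 0.34), the latter near background, were higher in the left atrium. Prox1, the factor that sets lymphatic identity, was lower there (-0.42 and -0.34), and Lyve1 did not pass (0.15 and -0.13). Without Ccl21 this list averaged 7.30 to 7.41 in right sham, 7.51 to 7.66 in left sham, 7.27 to 7.40 in right shunt and 7.28 to 7.54 in left shunt, and its part in the Ccl21 difference was not tested.

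Ccl19, the other ligand of the lymph node receptor Ccr7 (not analysed here), ran the other way. It read 6.70, 6.65 and 6.75 in right sham, 7.25, 6.87 and 7.18 in right shunt, 6.49, 6.28 and 6.26 in left sham and 6.95, 6.91 and 6.61 in left shunt. The sham groups did not overlap, and the left minus right difference was -0.36 ± 0.12 (adjusted p = 0.0286) in sham and -0.28 ± 0.12 (adjusted p = 0.0775) in shunt animals. Leaving out any 1 of the right sham arrays, or left sham replicate 2 or 3, ended the call in sham, with values of -0.38 to -0.31 (adjusted p 0.0524 to 0.0934). In the rat genome Ccl19, Ccl21 and Ccl27 neighbour each other with at most 2 other protein-coding genes between them, and Ccl27, a skin chemokine near background, differed by -0.03 and 0.08.

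**Figure D1:**
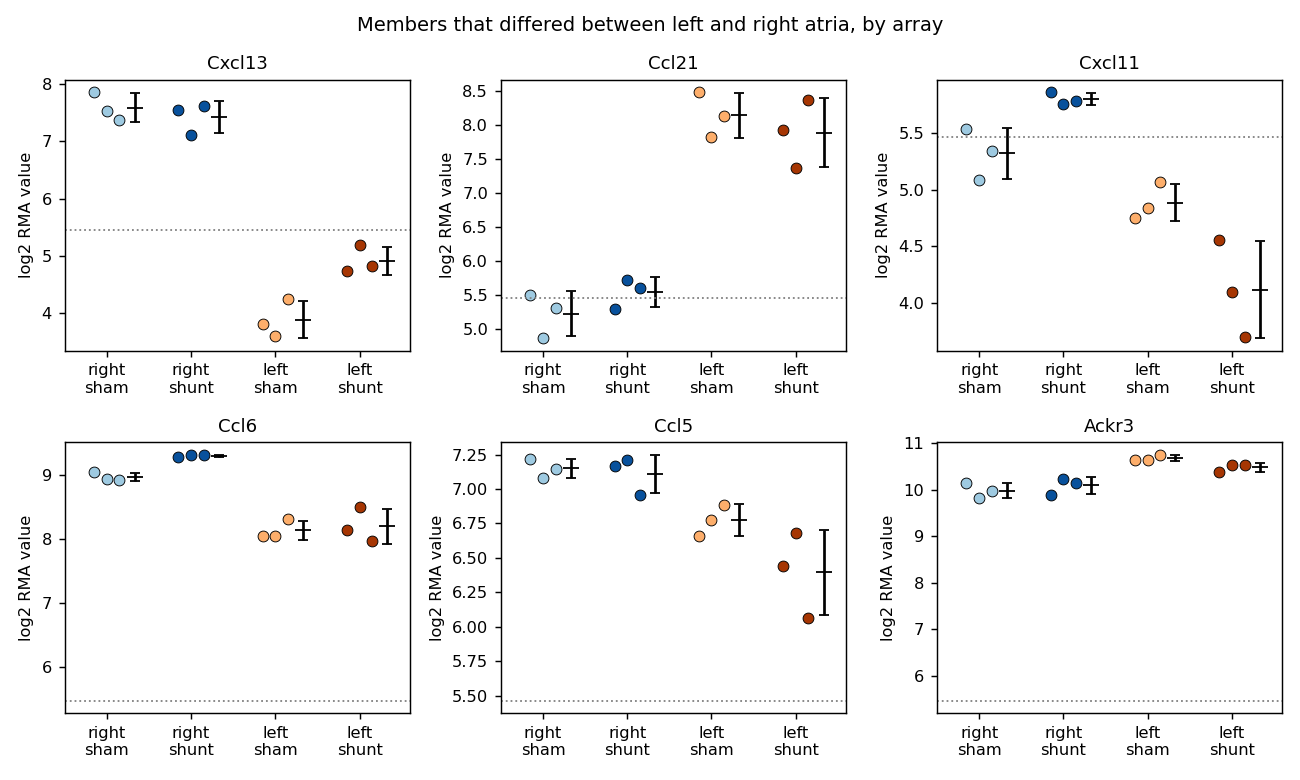
Log2 RMA value (vertical axis) on each array for 6 chemokine genes that differed between the atria, by group, with mean and SD beside the points and a dotted line at 5.46, the median of all probe sets; the vertical axes differ between panels. Right and left arrays do not overlap in any state for Cxcl13, Ccl21, Cxcl11, Ccl6 and Ccl5, nor for Ackr3.

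The interferon-induced ligands of Cxcr3, which draw in activated T cells, lie side by side as Cxcl9, Cxcl10 and Cxcl11, and differed from one another. Cxcl11 read 5.53, 5.08 and 5.34 in right sham, 5.86, 5.75 and 5.79 in right shunt, 4.75, 4.84 and 5.06 in left sham and 4.55, 4.10 and 3.70 in left shunt. The shunt groups lay far apart and the sham groups narrowly so. Its left minus right difference was -1.69 ± 0.18 after the shunt (adjusted p = 2.86e-05) and -0.44 ± 0.18 in sham (adjusted p = 0.0721). Only its right shunt mean (5.80) lay above the median of all probe sets. The left shunt mean of 4.11 lay within the range of the chemosensory genes, so no fold is given. The sham and shunt differences were not shown to differ from each other (-1.25 ± 0.25, adjusted p = 0.133). Cxcl9 was lower in the left after the shunt (-0.42 ± 0.14, adjusted p = 0.029). Without right shunt replicate 1 or 3 or left shunt replicate 2 or 3 that call was lost (-0.39 to -0.36, adjusted p 0.0649 to 0.0994). A second Cxcl9 probe set was higher in the left in sham animals (0.38, adjusted p = 0.0157), where the first gave -0.14 (adjusted p = 0.458). Cxcl10, near background, was higher in the left in sham (0.58 ± 0.18, adjusted p = 0.0233), but not without right sham replicate 1 or 3 or left sham replicate 2 (0.38 to 0.60, adjusted p 0.0519 to 0.0988). The receptor Cxcr3 was near background and differed by -0.26 (adjusted p = 0.0615) in sham and 0.02 in shunt animals.

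Of a row of neighbouring CC ligands, Ccl6, Ccl5 and Ccl4 were higher in the right atrium in both states. Ccl6, a rodent CC chemokine made by macrophages, read 9.04, 8.92 and 8.92 in right sham, 9.28, 9.31 and 9.30 in right shunt, 8.05, 8.05 and 8.30 in left sham and 8.13, 8.49 and 7.96 in left shunt. No left array reached a right one, and the difference was -0.83 ± 0.12 in sham (adjusted p = 0.000173) and -1.10 ± 0.12 in shunt animals (adjusted p = 3.33e-05). Its genomic neighbour Ccl5, an attractant of T cells, read 7.22, 7.08 and 7.15 in right sham, 7.17, 7.21 and 6.95 in right shunt, 6.66, 6.77 and 6.89 in left sham and 6.44, 6.68 and 6.06 in left shunt. Ccl5 was lower in the left in shunt animals (-0.72 ± 0.13, adjusted p = 0.00122) and in sham (-0.38 ± 0.13, adjusted p = 0.0404). The sham value did not pass without any 1 of the right sham arrays, left sham replicate 1 or 2 or right shunt replicate 1 (-0.41 to -0.32, adjusted p 0.0515 to 0.13). Ccl4, a further neighbour and near background, read 5.42, 5.46 and 5.38 in right sham, 5.51, 5.35 and 5.20 in right shunt, 5.01, 5.02 and 5.09 in left sham and 5.04, 5.15 and 4.76 in left shunt, with differences of -0.38 ± 0.10 (adjusted p = 0.0127) and -0.37 ± 0.10 (adjusted p = 0.0139). The groups did not overlap in either state, and after the shunt the value was -0.29 (adjusted p = 0.0622) without right shunt replicate 1. In the same cluster Ccl3, near background, did not pass (-0.31 and -0.04), and Ccl9, under the chemosensory level, was higher in the left after the shunt (0.26 ± 0.09, adjusted p = 0.0331). That last call was lost without any 1 right shunt array or left shunt replicate 1 (0.18 to 0.28, adjusted p 0.0559 to 0.129).

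Ccl6, Ccl5 and Ccl4 are products of macrophages and lymphocytes. Of 12 macrophage markers, none of them near background, 4 were lower in the left in sham (Adgre1 -1.26, Cd163 -0.57, Fcgr1a -0.65 and C1qa -0.35) and 7 after the shunt, none was higher, and 8 and 5 did not pass; of all probe sets 16.1% and 17.4% were lower. The median difference of the list was -0.12 in sham and -0.47 after the shunt. The list averaged 7.23 to 7.34 in right sham, 7.72 to 7.81 in right shunt, 6.98 to 7.07 in left sham and 6.84 to 7.40 in left shunt. Of 6 NK cell markers, 4 near background, 5 were lower in the left in sham and 1 after the shunt, and none was higher. Their median difference was -0.40 in sham and -0.20 after the shunt. Of 11 T cell markers, 9 near background, 2 were lower and 1 higher in each state. Of all probe sets 20.1% and 20.2% were higher. The part of these 3 lists in the chemokine differences was not tested.

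The eosinophil ligands of Ccr3 went opposite ways at low levels. Ccl24 read 3.75, 3.72 and 3.86 in right sham, 3.81, 3.76 and 3.78 in right shunt, 4.36, 4.85 and 4.71 in left sham and 4.48, 4.59 and 4.34 in left shunt, higher in the left by 0.87 ± 0.11 (adjusted p = 7.8e-05) and 0.69 ± 0.11 (adjusted p = 0.000524). Ccl11 read 4.91, 4.66 and 4.74 in right sham, 4.61, 4.71 and 4.89 in right shunt, 4.49, 4.12 and 4.06 in left sham and 4.22, 4.17 and 3.97 in left shunt, lower in the left by -0.55 ± 0.12 (adjusted p = 0.00362) and -0.62 ± 0.12 (adjusted p = 0.00179). For both genes the left and right arrays did not overlap, yet both were near background, as was Ccr3 itself (0.05 and 0.29, neither past the threshold). Ccl11 neighbours Ccl2 and Ccl7, the ligands of the monocyte receptor Ccr2. Ccl2 was higher in the left in sham (0.57 ± 0.13, adjusted p = 0.00347) and not after the shunt (-0.08 ± 0.13, adjusted p = 0.663), whereas Ccl7 was lower in the left after the shunt (-0.43 ± 0.14, adjusted p = 0.0317) and differed by 0.16 in sham. The Ccl7 value did not pass without any 1 right shunt array or left shunt replicate 2 (-0.45 to -0.30, adjusted p 0.0579 to 0.13).

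The Cxcl12 axis, which holds stem cells in place and guides vessels, comprises the ligand Cxcl12, its signalling receptor Cxcr4 and the scavenger Ackr3. Ackr3 read 10.15, 9.82 and 9.98 in right sham, 9.89, 10.24 and 10.16 in right shunt, 10.65, 10.63 and 10.75 in left sham and 10.37, 10.54 and 10.54 in left shunt. Left arrays lay above right arrays in both states, by 0.69 ± 0.11 (adjusted p = 0.000274) and 0.39 ± 0.11 (adjusted p = 0.0121; 0.29 and adjusted p = 0.0544 without right shunt replicate 1). Cxcr4 was lower in the left, by -0.33 ± 0.10 in sham (adjusted p = 0.0235) and -0.48 ± 0.10 after the shunt (adjusted p = 0.00323), and its other 2 probe sets gave -0.34 and -0.38 in sham and -0.81 and -0.57 after the shunt, all past the threshold. The sham value of the probe set that stood for Cxcr4 was lost without right sham replicate 1 or 3 or left sham replicate 1 or 2 (-0.33 to -0.26, adjusted p 0.0566 to 0.0929).

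For Cxcl12 itself the chamber direction depended on the probe set. The one with the highest mean read 9.50, 9.44 and 9.78 in right sham, 9.37, 9.62 and 9.58 in right shunt, 8.85, 8.85 and 8.93 in left sham and 8.81, 8.90 and 8.82 in left shunt, which put the left lower by -0.70 ± 0.10 (adjusted p = 0.000142) and -0.68 ± 0.10 (adjusted p = 0.000232). The second read 7.13, 7.09 and 7.24 in right sham and 7.99, 8.35 and 8.30 in left sham, which put the left higher by 1.06 ± 0.12 (adjusted p = 3.02e-05), and by 0.61 ± 0.12 after the shunt (adjusted p = 0.00189). The third gave 1.13 ± 0.15 in sham (adjusted p = 0.000133) and 0.32 ± 0.15 after the shunt (adjusted p = 0.123). As the mean of its probe sets Cxcl12 was higher in the left in sham (0.50, adjusted p = 0.00121) and did not pass after the shunt (0.082, adjusted p = 0.508). No chamber direction is therefore given for the gene.

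**Figure D2:**
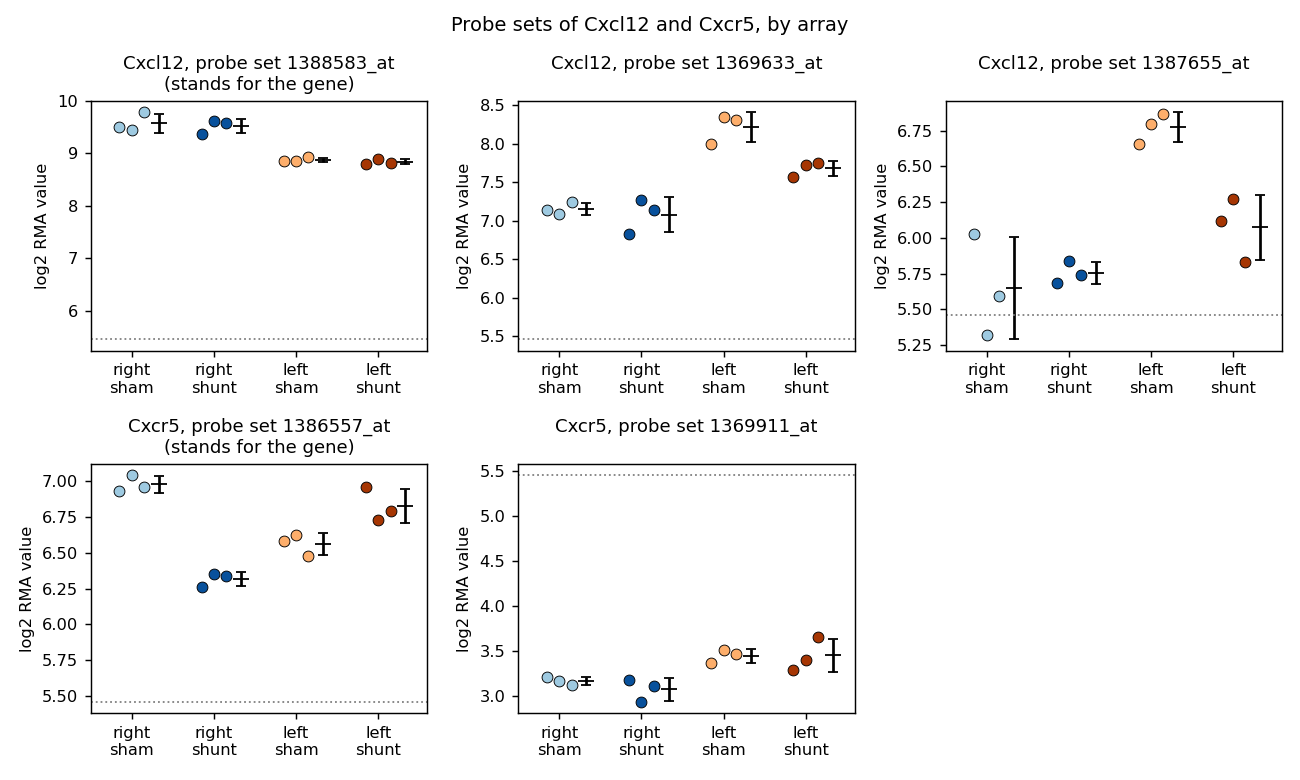
Log2 RMA value (vertical axis) on each array for the 3 probe sets of Cxcl12 and the 2 of Cxcr5, by group, with mean and SD beside the points; the dotted line is 5.46, the median of all probe sets, and the vertical axes differ between panels. The left arrays lie under the right ones for the Cxcl12 probe set that stood for the gene and above them for the second; for the third they do so in sham, and the shunt groups overlap. The second Cxcr5 probe set averaged 3.28 on all arrays, near background.

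The other receptors that differed between chambers were near background, apart from Cxcr5, the receptor of Cxcl13. Cxcr5 read 6.93, 7.04 and 6.96 in right sham, 6.26, 6.35 and 6.33 in right shunt, 6.58, 6.62 and 6.48 in left sham and 6.96, 6.73 and 6.79 in left shunt, so the left was lower by -0.42 ± 0.08 in sham (adjusted p = 0.00117) and higher by 0.51 ± 0.08 after the shunt (adjusted p = 0.00035). It was the exception among the 12 genes past the threshold in both states. Its second probe set, near background at a mean of 3.28, was higher in the left in both states (0.28, adjusted p = 0.042, in sham and 0.38, adjusted p = 0.00927, after the shunt). With the mean of the probe sets the sham difference was -0.07 (adjusted p = 0.401). The level above background and the change of direction thus rest on the first probe set alone. The annotation ties the second, not the first, to a RefSeq mRNA.

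Ccr10, a receptor of skin-homing lymphocytes, read 4.21, 3.99 and 4.09 in right sham, 3.98, 3.91 and 3.81 in right shunt, 4.34, 4.44 and 4.55 in left sham and 4.28, 4.15 and 4.53 in left shunt. It was higher in the left by 0.34 ± 0.10 (adjusted p = 0.0187) and 0.42 ± 0.10 (adjusted p = 0.00601), with no overlap. The sham value was 0.29 without right sham replicate 2 (adjusted p = 0.077) or left sham replicate 3 (adjusted p = 0.0737). Cxcr1, a neutrophil receptor for Cxcl6 and its relatives, read 3.46, 3.65 and 3.57 in right sham, 3.42, 3.54 and 3.56 in right shunt, 4.10, 3.78 and 3.99 in left sham and 3.88, 3.81 and 3.57 in left shunt, higher in the left in sham (0.40 ± 0.10, adjusted p = 0.00939) but not past the threshold after the shunt (0.25 ± 0.10, adjusted p = 0.0764). Its level is under the 90th percentile of the chemosensory genes. Cx3cr1, the fractalkine receptor of resident macrophages, was lower in the left in sham (-0.33 ± 0.10, adjusted p = 0.0185; -0.31 to -0.24 and adjusted p 0.0603 to 0.0811 without right sham replicate 1 or 2 or left sham replicate 2). Its ligand Cx3cl1, well above background at 7.79 to 8.16 on all 12 arrays, did not pass in any comparison.

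Of the other atypical receptors, Ackr2, a scavenger of inflammatory CC chemokines, read 4.69, 4.42 and 4.22 in right sham, 4.53, 4.68 and 4.60 in right shunt, 4.99, 4.74 and 4.73 in left sham and 5.43, 5.62 and 5.11 in left shunt. Left arrays were the higher ones in both states. The difference was 0.79 ± 0.14 after the shunt (adjusted p = 0.000921) and 0.38 ± 0.14 in sham (adjusted p = 0.0506); its second probe set gave 0.14 after the shunt (adjusted p = 0.417) and 0.40 in sham (adjusted p = 0.0324). Ackr4, a scavenger of Ccl19 and Ccl21, read 8.30, 8.26 and 8.15 in right sham, 7.98, 8.23 and 8.06 in right shunt, 7.86, 7.96 and 7.99 in left sham and 7.71, 7.86 and 7.33 in left shunt. It was lower in the left after the shunt (-0.46 ± 0.12, adjusted p = 0.00964) and did not pass in sham (-0.29 ± 0.12, adjusted p = 0.07). Ackr1, near background, did not pass in any comparison. In a fit with fewer arrays, right shunt replicate 1 was the only array of its group and was assumed to vary like the other groups. There the differences after the shunt of Ackr4 (-0.34), Ccl11 (-0.49), Ccr10 (0.35), Cxcr4 (-0.51), Ccl7 (-0.42), Ccl9 (0.27), Cxcl9 (-0.55) and Cxcl14 (0.35) no longer passed. Without left shunt replicate 3, 18 of the 20 genes still passed after the shunt, among them Cxcl13 (-2.46), Ccl21 (2.11), Cxcl11 (-1.48), Ccl6 (-0.99), Ackr2 (0.92), Ccl5 (-0.55) and Ackr4 (-0.30), and Cxcl9 and Cxcl14 did not.

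**Figure D3:**
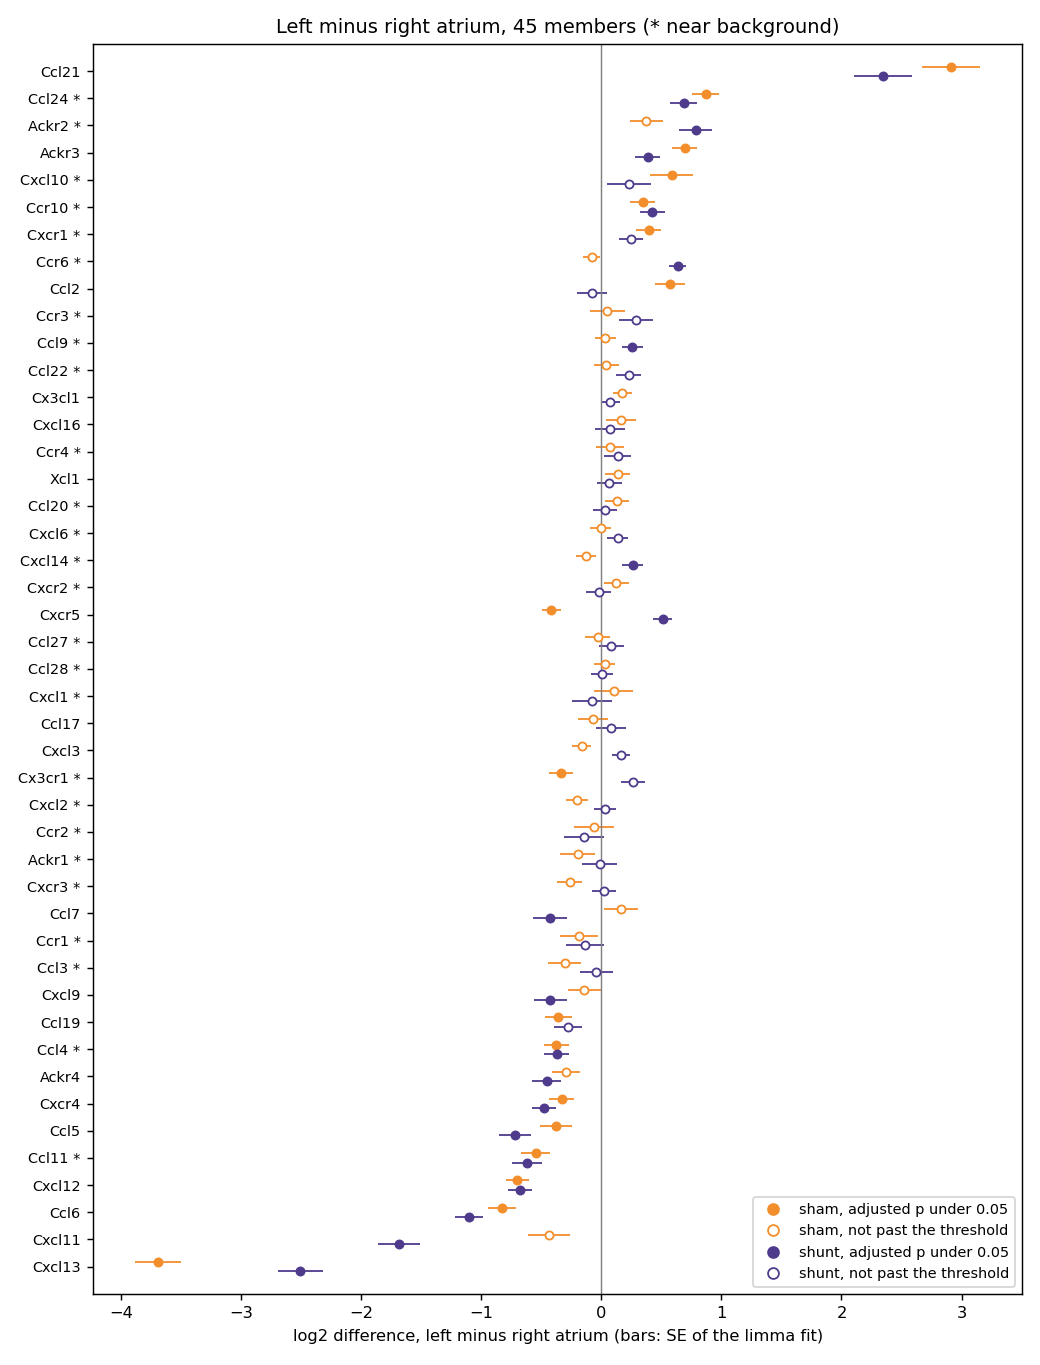
Left minus right difference on the log2 scale (horizontal axis) of all 45 genes in sham (orange) and shunt animals (purple), with the SE of the limma fit as bars; filled points passed an adjusted p of 0.05 and an asterisk marks genes near background. Cxcl13 at -3.69 and Ccl21 at 2.91 in sham stand at the ends, and Cxcr5 is the gene with filled points on opposite sides.

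After the shunt the monocyte attractant Ccl2 was 1.90-fold higher than in sham in the right atrium. Cxcr4, the receptor of Cxcl12, was 1.60-fold higher in the right and 1.45-fold higher in the left. In the right atrium 5 of the 45 genes (11.1%) passed the threshold, against 2.97% of all probe sets: Ccl2 and Cxcr4 rose (1.90% of all probe sets did) and Ccr6, Cxcl14 and Cxcr5 fell (1.07%). In the left atrium Cxcl13 and Cxcr4 rose (4.44%, against 0.751% of all probe sets, 0.283% upward) and none of the 45 fell. Averaged over both atria 6 (13.3%) passed, against 3.86%: Ccl2, Ccl19, Cxcl16 and Cxcr4 rose (2.31%) and Cxcl14 and Xcl1 fell (1.55%). The average treats left and right pools as independent. The labels do not say whether these pools share rats, and if they do, its SE may be too small. The chemokine genes are represented by their brightest probe sets, and over the 14217 genes taken that way 6.34% passed in the right, 1.43% in the left and 7.43% on average, with 6, 2 and 8 chemokine genes. No claim is made on these shares. The median change of the 45 genes was -0.04 in the right and -0.0044 in the left atrium, against -0.0028 and -0.0013 for all probe sets, and 17 and 14 of them reached an unadjusted p under 0.05. The chamber and the shunt comparisons share arrays (the right sham arrays serve in both), so the directions of a gene in them are not independent.

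Ccl2 read 6.20, 5.87 and 6.10 in right sham, 7.09, 7.07 and 6.79 in right shunt, 6.76, 6.42 and 6.70 in left sham and 7.09, 6.77 and 6.87 in left shunt. The right sham arrays were the lowest of all 12. The left sham arrays lay under all arrays of both shunt groups, though narrowly (6.76 against 6.77 at the closest), and the shunt groups overlapped. The change was 0.93 ± 0.13 in the right (adjusted p = 0.004), 0.28 ± 0.13 in the left (adjusted p = 0.349) and 0.60 ± 0.09 on average (adjusted p = 0.00297). The effects in the 2 atria were not shown to differ (-0.64 ± 0.18, adjusted p = 0.175). Ccl7, its neighbour and fellow ligand of Ccr2, read 5.49, 5.39 and 5.31 in right sham and 5.87, 5.94 and 5.83 in right shunt; these groups did not overlap, but the change of 0.48 ± 0.14 did not pass (adjusted p = 0.0883). Ccr2, which lay at the chemosensory level, gave 0.07 and -0.01.

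Cxcr4 read 7.39, 7.12 and 7.41 in right sham, 8.02, 7.98 and 7.96 in right shunt, 6.97, 6.84 and 7.11 in left sham and 7.63, 7.56 and 7.34 in left shunt. Shunt arrays lay above sham arrays in each atrium. The rise was 0.68 ± 0.10 in the right (adjusted p = 0.00676), 0.54 ± 0.10 in the left (adjusted p = 0.0358) and 0.61 ± 0.07 on average (adjusted p = 0.000717). The other 2 probe sets gave 0.89 and 0.76 in the right, both past the threshold, and 0.41 (adjusted p = 0.0812) and 0.57 (adjusted p = 0.0321) in the left. The left value did not pass in 10 of 12 exclusions of 1 array (0.47 to 0.60, adjusted p 0.05 to 0.126), the passing ones being those without right sham replicate 2 or left shunt replicate 3 (0.62, adjusted p = 0.00961). Nor did the left value pass in a fit of the left arrays alone (0.54, adjusted p = 0.222). The ligand Cxcl12 gave -0.05 and -0.03, and its other 2 probe sets -0.08 and 0.11 in the right and -0.53 and -0.70 in the left, none past the threshold. Ackr3 gave 0.11 and -0.19.

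Macrophage markers moved with these genes in the right atrium, where Aif1 (0.74), Fcgr1a (0.73), Lyz2 (0.68) and Mrc1 (0.59) of the 12 measured rose and none fell. Over all probe sets 1.90% rose there. In the left atrium none of the 12 passed, though 10 were upward. There the list averaged 6.98 to 7.07 in sham and 6.84 to 7.40 after the shunt, with the middle shunt array at 7.34. Averaged over both atria Aif1, Lyz2 and Fcgr1a rose and all 12 were upward. None of the 12 passed in the interaction. In the right the list averaged 7.23 to 7.34 in sham and 7.72 to 7.81 after the shunt. Of the 7 ventricular markers Myl2, Myl3, Myh7 and Hey2 rose there too, with replicates 2 and 3 of right shunt (9.23 and 9.28) above replicate 1 (8.47). The part of these markers in the changes of Ccl2 and Cxcr4 was not tested. In a fit with right shunt replicate 1 as the only array of its group, which is then assumed to vary like the other groups, none of the 5 right changes passed: Ccl2 1.03 (adjusted p = 0.095), Cxcr4 0.72 (adjusted p = 0.165), Cxcr5 -0.72 (adjusted p = 0.0877), Cxcl14 -0.57 (adjusted p = 0.149) and Ccr6 -0.48 (adjusted p = 0.172). In that fit 0.0612% of all probe sets passed. Replicate 1 itself had a higher ventricular mean than the right sham arrays, and the part of these markers was not tested.

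The rise of Cxcl13 in the left atrium was 1.03 ± 0.19 (adjusted p = 0.0298), from a sham mean of 3.89 that lay under the chemosensory 90th percentile of 3.96, with no overlap between the sham and shunt arrays given above. In the right atrium it gave -0.16 ± 0.19 (adjusted p = 0.69), and the difference between the atria did not pass (1.19 ± 0.27, adjusted p = 0.141). Without left sham replicate 1 or 2 or left shunt replicate 2 the left value was 0.89 to 0.98 and did not pass (adjusted p 0.0803 to 0.11), nor did it in a fit of the left arrays alone (adjusted p = 0.155) or with right shunt replicates 2 and 3 left out (adjusted p = 0.0584). Without left shunt replicate 3 it was 1.07 (adjusted p = 0.0232). Left shunt values stayed under the median of all probe sets. Leaving out left shunt replicate 3 brought Ackr2, Ccl19 and Cxcl16 past the threshold in the left atrium as well, for 5 genes in place of 2.

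Ccl19, whose array values are given above, rose by 0.44 ± 0.08 averaged over the atria (adjusted p = 0.0109), with 0.40 ± 0.12 in the right (adjusted p = 0.0838) and 0.48 ± 0.12 in the left (adjusted p = 0.0853), and shunt arrays above sham arrays in each. The membrane-bound ligand Cxcl16, a scavenger of oxidised lipoprotein as well, read 8.46, 8.39 and 8.35 in right sham, 8.78, 8.87 and 8.70 in right shunt, 8.60, 8.50 and 8.57 in left sham and 8.89, 9.15 and 8.52 in left shunt. Right shunt arrays lay above right sham arrays, while left shunt replicate 3 fell among the left sham arrays. Its average rise of 0.34 ± 0.09 just passed (adjusted p = 0.0494) and was 0.43 (adjusted p = 0.00157) without that array. Leaving out any other array ended the call (0.27 to 0.36, adjusted p 0.0733 to 0.121), as did subtracting array medians (0.34, adjusted p = 0.057).

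Cxcl14, an attractant of monocytes and dendritic cells in epithelia and near background here, read 4.83, 4.75 and 4.82 in right sham, 4.22, 4.42 and 4.29 in right shunt, 4.67, 4.66 and 4.68 in left sham and 4.40, 4.70 and 4.63 in left shunt. It fell by 0.48 ± 0.09 on the log2 scale in the right atrium (adjusted p = 0.0136), where the groups did not overlap, and gave -0.10 ± 0.09 in the left (adjusted p = 0.673). Without right sham replicate 3 (-0.47, adjusted p = 0.0504) or right shunt replicate 1 (-0.44, adjusted p = 0.0599) the right value did not pass. The average of -0.29 ± 0.06 (adjusted p = 0.0197) was -0.27 without right shunt replicate 1 (adjusted p = 0.0524) and -0.16 as the mean of its 2 probe sets (adjusted p = 0.151). After the shunt Cxcl14 was also higher in the left than in the right (0.26 ± 0.09, adjusted p = 0.0297), though the groups overlapped and the call was lost without right shunt replicate 1 or 3 or left shunt replicate 2 or 3 (0.20 to 0.25, adjusted p 0.0756 to 0.115). Xcl1, a T and NK cell product that acts on dendritic cells, fell by 0.31 ± 0.07 on average (adjusted p = 0.0394), with -0.27 in the right and -0.34 in the left; 10 of 12 exclusions of 1 array ended the call (-0.33 to -0.25, adjusted p 0.0558 to 0.0913), all but those of right shunt replicate 2 and left shunt replicate 3. Of the 6 NK cell markers, 4 near background, Klrd1 (-0.51) and Gzmb (-0.35) fell in the right atrium. The list averaged 4.58 to 4.66 in right sham and 4.32 to 4.44 in right shunt. In the left atrium none of the 6 passed, and the list averaged 4.15 to 4.27 in sham and 4.16 to 4.24 after the shunt. The part of this list in the Xcl1 value was not tested.

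**Figure D4:**
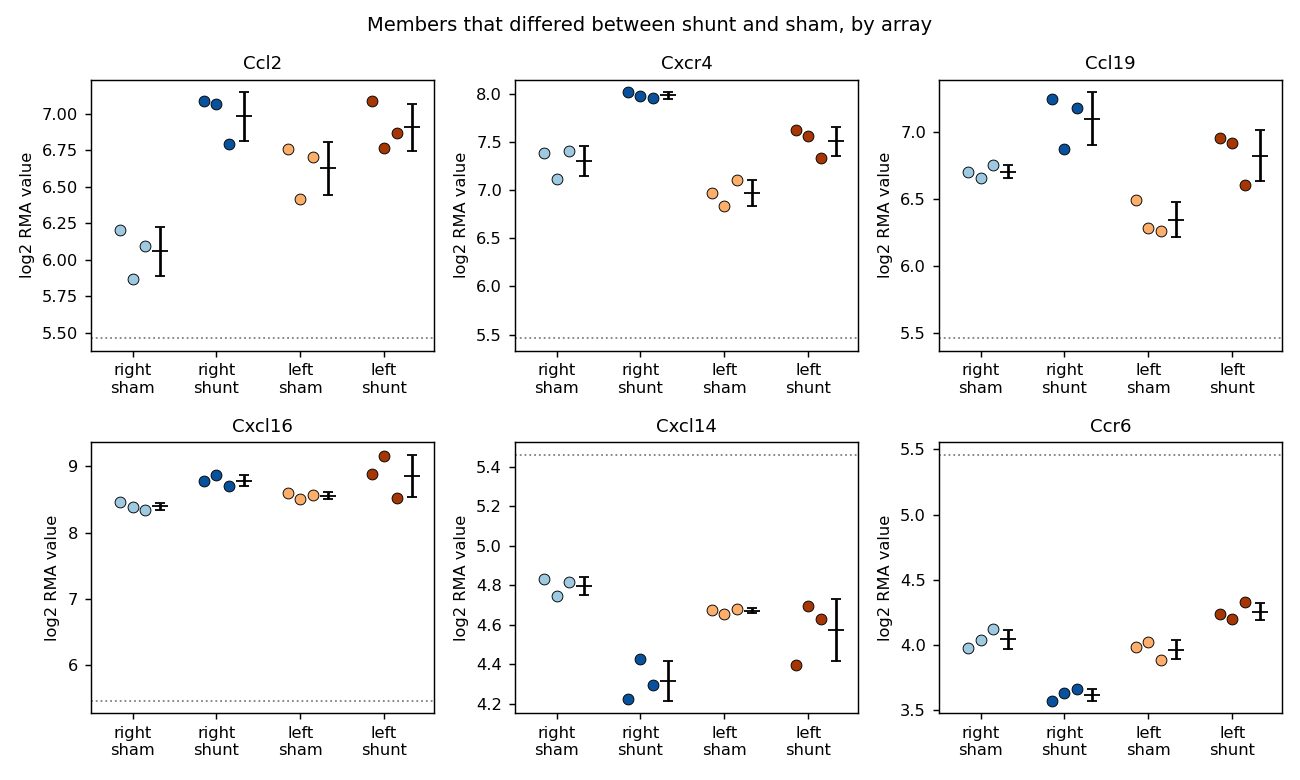
Log2 RMA value (vertical axis) on each array for 6 genes that passed the threshold in a shunt comparison, by group, with mean and SD beside the points and a dotted line at 5.46, the median of all probe sets; the vertical axes differ between panels. Shunt arrays lie above sham arrays in both atria for Cxcr4 and Ccl19, and Cxcl14 and Ccr6 lie under the dotted line throughout.

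The difference in shunt change between the atria passed the threshold for Cxcr5, a receptor of B cells, and Ccr6, a receptor of T helper, B and dendritic cells. These were 2 of the 45 genes (4.44%), against 0.0258% of all probe sets (8 probe sets, 0.0226% with a higher change in the left and 0.00322% with a lower one). Neither passed with the same-numbered left and right arrays of a treatment as a block, an alternative chosen after seeing the data (adjusted p = 0.115 for Cxcr5 and 0.129 for Ccr6). Cxcr5 fell by 0.66 ± 0.08 on the log2 scale in the right atrium (adjusted p = 0.00174) and gave 0.27 ± 0.08 in the left (adjusted p = 0.143), a difference of 0.93 ± 0.11 (adjusted p = 0.0235). As its values above show, the right shunt arrays were the lowest of the 12 and the right sham arrays were high. Its second, near-background probe set gave -0.10 (adjusted p = 0.643) in the right and 0.01 in the left, with a difference of 0.10 (adjusted p = 0.765), and the mean of both gave 0.51 (adjusted p = 0.0548). The interaction was also lost without right sham replicate 1 or 2, right shunt replicate 2 or left sham replicate 2 or 3 (0.89 to 0.96, adjusted p 0.0631 to 0.102). The 5 B cell markers averaged 4.71 to 4.87 in right sham, 4.68 to 4.73 in right shunt, 4.56 to 4.86 in left sham and 4.74 to 4.91 in left shunt, and their part in the Cxcr5 values was not tested.

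Ccr6 read 3.97, 4.04 and 4.12 in right sham, 3.57, 3.63 and 3.66 in right shunt, 3.98, 4.02 and 3.88 in left sham and 4.24, 4.20 and 4.33 in left shunt, within the range of the chemosensory genes. The right shunt arrays were the lowest and the left shunt arrays the highest. It fell by 0.43 ± 0.07 in the right (adjusted p = 0.0116; -0.43 and adjusted p = 0.0528 without right shunt replicate 2), gave 0.29 ± 0.07 in the left (adjusted p = 0.0921), and differed between the atria by 0.72 ± 0.10 (adjusted p = 0.0441). After the shunt it was higher in the left by 0.64 ± 0.07 (adjusted p = 4.57e-05), a value that passed in every alternative run, and in sham the difference was -0.08 ± 0.07. The interaction was lost in 11 of 12 exclusions of 1 array, all but left shunt replicate 3 (0.68 to 0.75, adjusted p 0.0719 to 0.145). The Ccr6 interaction also did not pass after renormalization (0.63, adjusted p = 0.0631) or after subtracting array medians (0.69, adjusted p = 0.0532). With trended robust variances Ccr6 gave 0.72 (adjusted p = 0.0595). Its ligand Ccl20, under the chemosensory level, gave -0.0001 and -0.10.

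**Figure D5:**
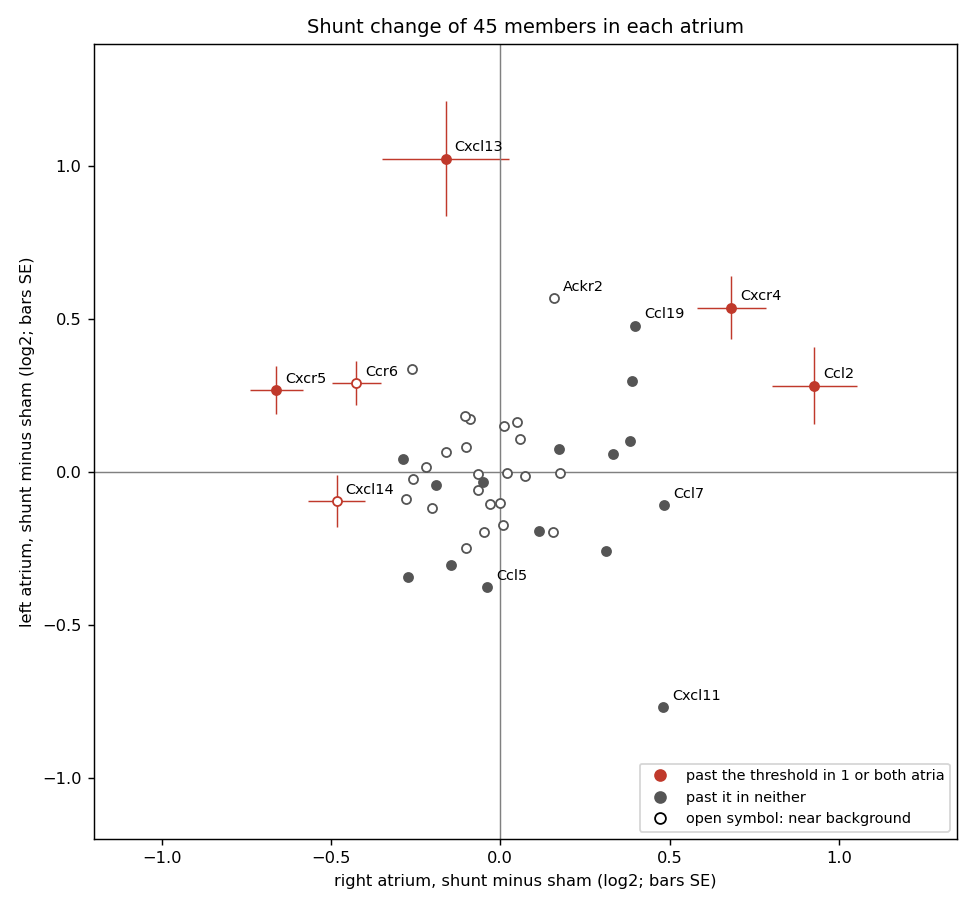
Shunt minus sham change of the 45 genes on the log2 scale in the right (horizontal axis) and the left atrium (vertical axis); red points passed the threshold in 1 or both atria and carry SE bars, grey ones in neither, and open symbols mark genes near background. Cxcr4 lies at 0.68 and 0.54, Ccl2 at 0.93 and 0.28, Cxcl13 at -0.16 and 1.03, and Cxcr5 at -0.66 and 0.27.

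Of the 45 genes, 18 passed in none of the 6 comparisons, 15 of them near background. The 3 above it were Ccl17, Cx3cl1 and Cxcl3. Cxcl3, a neutrophil ligand in a row of neighbours with Cxcl1, Cxcl2 and Cxcl6, gave -0.29 ± 0.08 in the right atrium after the shunt (adjusted p = 0.0704), and another of its 5 probe sets was higher in the left in sham (0.40, adjusted p = 0.00335) and in shunt animals (0.33, adjusted p = 0.0116). Its neighbours Cxcl1, Cxcl2 and Cxcl6 and the receptor Cxcr2 were near background and did not pass. Changes that missed the threshold in the right atrium ran from -0.29 to 0.48 and in the left from -0.77 to 0.57. The ends in the left were Cxcl11 (-0.77 ± 0.18, adjusted p = 0.074) and Ackr2 (0.57 ± 0.14, adjusted p = 0.0897), neither with overlap between sham and shunt arrays. Cxcr6 and Xcr1, the receptors of Cxcl16 and Xcl1, were not analysed here.

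Genes that induce, transmit or receive the work of chemokines were counted from 4 lists. Of 27 genes of inflammatory cytokines and the NF-kB pathway, 9 were near background. Tlr4 (0.63), Ikbkb (0.51), Il6r (0.41), Nfkbib (0.40) and Tlr2 (0.40, near background) rose in the right atrium, and Tnf, near background, fell by 0.38. The other 21 did not pass, and none of the 27 passed in the left. Of 19 adhesion genes that slow and arrest leukocytes on the vessel wall, Sele, the endothelial E-selectin, rose in the right atrium (0.62 ± 0.11, adjusted p = 0.0148). Sele was near background, reading 3.69, 3.53 and 3.57 in right sham and 4.35, 4.21 and 4.07 in right shunt. Averaged over the atria the integrin Itgal (0.29) and the hyaluronan receptor Cd44 (0.21) rose too, and none of the 19 fell. Of 21 genes of chemokine signalling inside the cell, the receptor kinase Grk6 rose in the right atrium (0.29) and the kinase Ptk2b on average (0.38), and no other passed. Of 12 chemoattractants, scavengers and trimming proteases outside the naming rule, the complement receptor C5ar1 rose in the right (0.43) and Ccrl2 fell by 0.34 on average. Over all probe sets 1.90% rose and 1.07% fell in the right atrium, 0.283% and 0.467% in the left, and 2.31% and 1.55% on average. The medians of these lists in the right atrium were 0.07, 0.11, 0.05 and 0.06, against -0.0028 for all probe sets.

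Between the chambers the same lists split both ways. In sham, 5 adhesion genes were higher and 6 lower in the left, among the latter Itgal (-0.83, adjusted p = 2.86e-05) and Sele (-0.56, adjusted p = 0.00181), and among the former Icam1 (0.57, adjusted p = 0.0117). After the shunt Sele (-1.17, adjusted p = 1.57e-05), Itgal (-0.90, adjusted p = 2.43e-05) and the integrin ligand Vcam1 (-0.44, adjusted p = 0.0146) were among 6 lower, against 3 higher. Cytokine and NF-kB genes split 6 higher to 5 lower in sham and 7 to 8 after the shunt, signalling genes 4 to 3 and 4 to 6, and the chemoattractants outside the naming rule 2 to 1 and 2 to 4. Over all probe sets 20.1% were higher and 16.1% lower in the left in sham, and 20.2% and 17.4% after the shunt. The median differences of the 4 lists lay between -0.12 and 0.04.

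Markers of other cell types that make or follow chemokines were counted the same way. None of 4 neutrophil, 11 T cell, 7 mast cell, 4 dendritic cell, 8 fibroblast, 6 smooth muscle and 7 adipocyte markers passed in either shunt comparison, and most of the neutrophil (3), T cell (9) and mast cell (6) markers were near background. Of 8 endothelial markers Esam rose in the right atrium, and of 5 mesothelial markers Krt19 fell there. Of 8 neuronal markers, 6 near background, Prph rose in both atria and Uchl1 in the left. Of 7 atrial muscle markers Kcna5 fell in the right. Of 7 ventricular markers, 2 near background, 4 rose in the right, and in the left Myh7 alone rose. Over all probe sets 1.90% rose and 1.07% fell in the right, and 0.283% and 0.467% in the left. Between the chambers, 5 of 6 smooth muscle markers were higher in the left in both states and none lower, and of 6 NK cell markers 5 were lower in the left in sham and 1 after the shunt. Of 5 mesothelial markers 3 were higher in sham, and 2 higher and 1 lower after the shunt. Of 8 endothelial markers 4 were higher and 1 lower in sham, and 1 higher and 3 lower after the shunt. None of the neuronal markers passed in sham and 4 were higher in the left after the shunt. Of 7 ventricular markers 4 (Myl2, Myl3, Irx4 and Hey2) were lower in the left in both states. In the other direction, 1 was higher in sham and 2 after the shunt. The median difference of the ventricular list was -0.90 in sham and -1.31 after the shunt. The T cell, mast cell, dendritic cell, fibroblast and adipocyte lists had at most 3 in either direction. Of all probe sets 20.1% were higher and 16.1% lower in sham, and 20.2% and 17.4% after the shunt. Their part in the chemokine differences was not tested.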

How the data were processed

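Per the labels, total RNA from pools of 2 atrial appendages was hybridised to Affymetrix rat arrays, 3 biological replicates in each of 4 groups. The authors deposited 1 table of log2 expression values which the submitters' processing notes credit to RMA; its version is not given in the sources used here. RMA subtracts background, quantile-normalizes and summarises probes, so low values are compressed and a fold there is understated. Array medians lay between 5.44 and 5.47. The number of arrays limits the precision: the SE of a member gene's shunt change in 1 atrium had a median of 0.11 and a range of 0.07 to 0.24.

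Without the 57 controls, 31042 probe sets were tested with limma 3.58.1 in R 4.3.3, with 1 mean per group over all 12 arrays and Benjamini-Hochberg adjustment. Scripts were tested on simulated data. Probe sets were named from GEO's platform annotation (20826 with 1 gene, 436 with several, which named none). The genes and lists were chosen with earlier results of these data known. Of the 27 genes past the threshold in at least 1 of 6 comparisons, the 20 with the smallest adjusted p have every array's value; others have changes only, except Ccl7 and Cxcl16, whose array values were added after they were seen. Of each list, up to 4 genes with the smallest p are named by rule; Vcam1, Icam1 and the others beyond 4 were chosen after their values were seen. Promoters came from RefSeq (GRCr8); proteins were not used here. Alternatives were dim probe sets left out, renormalization, centring, other variance moderation, array weights, fewer arrays, a replicate block and other probe set rules.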

Additional observations from a re-analysis of the deposited data

Results flagged for a closer look

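The difference in shunt change between the atria, the interaction term of the limma fit, passed the threshold for 2 chemokine receptors. For Cxcr5 the change was higher in the left than in the right atrium by 0.93 on the log2 scale, and its right sham arrays lay above, its left sham arrays below, the shunt arrays of the same atrium. For Ccr6, near background, the change was higher in the left by 0.72. Neither passed with a replicate block (adjusted p 0.0665 for Cxcr5 and 0.0847 for Ccr6).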

How the results depend on the processing

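Of 52 changes past the threshold, 21 passed in every alternative run and 31 were lost in at least 1. The direction was reversed for Cxcl12 alone, by the mean of its probe sets (0.50 in sham and 0.082 in shunt animals, left minus right). Right shunt (5 genes past the threshold) gave 10 with array weights, 9 with only the groups compared and 0 without right shunt replicates 2 and 3, and 4 to 7 with 1 array left out. Left shunt (2 genes) gave 4 with trended robust variances, 4 with array weights, 5 with the mean of probe sets, 0 with only the groups compared, 0 without right shunt replicates 2 and 3, and 0 to 5 with 1 array left out (0 without left sham replicate 1 or 2 or left shunt replicate 2, and 5 without left shunt replicate 3). The average (6) gave 3 without right shunt replicates 2 and 3, and 3 to 7 with 1 array left out (3 without right shunt replicate 1). The interaction (2) gave 1 without dim probe sets, 1 after renormalization, 1 after subtracting medians, 1 with trended robust variances, 1 with the mean of probe sets, 0 without right shunt replicates 2 and 3, and 0 to 2 with 1 array left out. Left minus right in sham (17) gave 10 without dim probe sets, where 16 of the genes were tested, and 13 to 20 with 1 array left out; after the shunt (20) it gave 11, 12 without right shunt replicates 2 and 3, and 14 to 21 with 1 array left out. Genes near background numbered 26 by the median, 29 by the mean over all arrays and 9 by the chemosensory level. Apart from fewer arrays or genes, the cause was not tested.

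With the replicate block the counts were 5 in right shunt, 2 in left shunt, 6 on average, 0 for the interaction, 18 in sham and 19 in shunt animals between chambers. With same-numbered left and right arrays of 1 treatment as the replicate block, an alternative chosen after seeing the data, they were 0 for the interaction, 19 in sham and 20 in shunt animals. The labels do not say that a number marks the same rats. Of 18 same-numbered pairs 3 had a correlation of their deviations over 0.1 (-0.10 to 0.15, other pairs -0.12 to 0.13). All 6 same-numbered left-right pairs of a treatment were positive (0.079 to 0.15), and the 12 left-right pairs of a treatment with other numbers were negative (-0.089 to -0.012). Within a treatment every array thus correlated best with its own number in the other chamber. Deviations from a group mean cancel within the group, so a positive same-numbered pair pulls the others negative, and the 12 are not separate support. Left-right pairs from different treatments reached 0.13. The positive pairs are only a hint from the data that left and right pools may share rats. If they do, the SE of the change averaged over both atria may be too small.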
